A study of Mus musculus with 82 samples.

Results

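Sciatic nerves of mice without a working Fig4 gene were compared with wild-type nerves at postnatal day 12, written P12 here. The 6 samples were those labelled P12 Fig4 -/- (3 samples, called null) and P12 Fig4 +/+ (3 samples), out of 82 samples in the series, and all of their genes were used. The series measured RNA of whole mouse sciatic nerve in development, after injury and with several genotypes, including Mitf and Ndrg1. The labels give genotype and age for these 6 samples, and no allele, strain, sex, litter or number of pooled animals. Nothing in them says that the samples of 1 group are separate animals, so each p-value here rests on a sample-to-sample spread that may be technical. Beside the P12 samples, 3 Fig4 -/- and 3 Fig4 +/+ nerves at P4 and 8 nerves from a nerve injury experiment were used. The 8 injury samples (4 uninjured and 4 at 3 days post injury) all carry the genotype label Mitf, which their labels explain no further. No age is given for them.

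FIG4 is a lipid phosphatase that works in a complex with the kinase PIKFYVE and the scaffold VAC14, which together set the amount of a signalling lipid on late endosomes and lysosomes. Cells without FIG4 hold enlarged vacuoles, and mutations in the human gene cause a recessive form of Charcot-Marie-Tooth disease, an inherited neuropathy. Sciatic nerve in the second week of life is rich in Schwann cells that are building myelin, which demands large amounts of cholesterol and fatty acids. After nerve injury Schwann cells give up myelination for a repair state led by the transcription factor JUN. The MiT/TFE transcription factors (MITF, TFEB, TFE3 and TFEC) drive genes of the lysosome and, in pigment cells, of melanin synthesis.

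Library totals ran from 21248996 to 24660436 estimated counts at P12, and between 15168 and 17741 genes had a count. Log CPM (counts scaled to library size) of 2 libraries correlated at 0.951 to 0.964 within the +/+ group, 0.910 to 0.932 within the null group and 0.899 to 0.942 between the groups. Null replicate 1 stood apart on the first principal component, which held 37.5% of the variance, and null replicate 2 on the second, which held 23.3%. The summed level of 4 Y-linked genes (Ddx3y, Kdm5d, Uty and Eif2s3y) was 0 CPM in all 3 +/+ libraries and 40.2, 151 and 84.2 CPM in null replicates 1, 2 and 3. Xist, the RNA of the inactive X chromosome, was at 114, 130 and 192 CPM in the +/+ libraries and 62.9, 0 and 49.4 CPM in the null libraries, so that null replicates 1 and 3 held both kinds of transcript. Genotype and sex can therefore not be told apart by these 6 libraries, and 3 of the genes called higher below are Y-linked. Skeletal muscle markers summed to 95.8, 215 and 85.2 CPM in the +/+ libraries and to 74.4, 67.9 and 57.7 CPM in the null libraries.

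**Figure D1:**
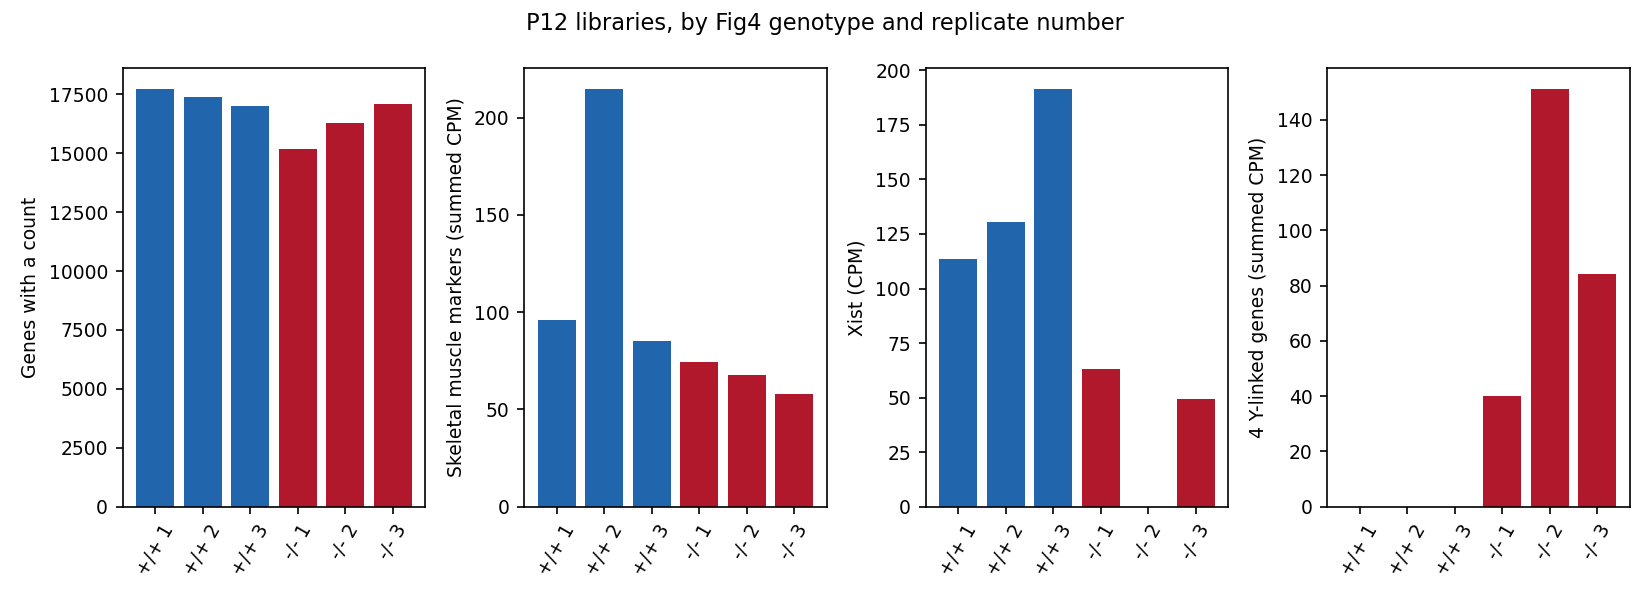
Bars give, for each P12 library, the number of genes with a count, the summed level of skeletal muscle markers, the level of Xist and the summed level of 4 Y-linked genes (all levels in CPM). The 3 +/+ libraries have no Y-linked signal and the 3 null libraries have 40.2 to 151 CPM, while muscle markers are highest in +/+ replicate 2 at 215 CPM.

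Fig4 itself (ENSMUSG00000038417.4, a protein-coding gene at chr10:41188172-41303260 on the minus strand, GENCODE vM21 on mm10) was at 26.3, 23.5 and 18.3 CPM in the +/+ libraries and 3.00, 4.38 and 5.90 CPM in the null libraries. The groups did not overlap, and all 6 libraries matched their labels. The fitted difference was -2.35 ± 0.28 (log2, SE; edgeR quasi-likelihood test, Benjamini-Hochberg adjusted p = 0.00084). Remaining null counts were above 0 in every library. Of the 29 tested genes of its complex and of phosphoinositide metabolism, Fig4 and Pip4k2a (-0.65, edgeR adjusted p = 0.0418), a phosphoinositide kinase, were lower and 0 were higher. Vac14, the scaffold, differed by 0.44 (edgeR adjusted p = 0.309) and Pikfyve, the kinase, by -0.48 (edgeR adjusted p = 0.227). Among 54 tested genes within 10 Mb of Fig4, 1 was called, Lama4 at -0.48 (edgeR adjusted p = 0.0447), a laminin chain.

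Of 14338 tested genes, 268 were higher and 167 lower in null nerve at an edgeR adjusted p under 0.05, which is 3.03% of the genes (1.87% higher and 1.16% lower). The higher genes had the larger changes, with 170 of them and 37 of the lower genes past an absolute log2 change of 1. Among the lists, 15 of 25 repair Schwann cell genes, 10 of 20 macrophage genes, 7 of 12 cathepsins and 4 of 9 pigment cell genes were higher, and 13 of 22 cholesterol synthesis and 9 of 21 fatty acid synthesis genes were lower. All lists were chosen with earlier results of these data known. All 435 called genes had groups that did not overlap. They were picked on these same values, so this adds no support to the calls. Of all tested genes, 11.7% had the null libraries all above and 12% had them all below. The median log2 change over all tested genes was 6.22e-05, which the scaling of libraries (TMM) holds near 0. It therefore cannot show a shift of all genes together. With plain library size the median shift of log2 CPM was 0.127. Leaving out 1 library gave between 146 genes (without null replicate 2) and 709 (without null replicate 3), and 93 higher and 18 lower genes were called in all 6 such fits. The other libraries that moved the count by over 1.5 times were +/+ replicate 1 (159 genes without it), +/+ replicate 2 (177) and null replicate 1 (275). With the Y-linked sum as a covariate 54 genes were called (42 of them among the 435). With the muscle score, the mean log2 CPM of the skeletal muscle markers, 33 were called (28 of them among the 435). Fig4 itself was not called in either, and the part of sex and of muscle in the other differences was not tested beyond these fits.

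**Figure D2:**
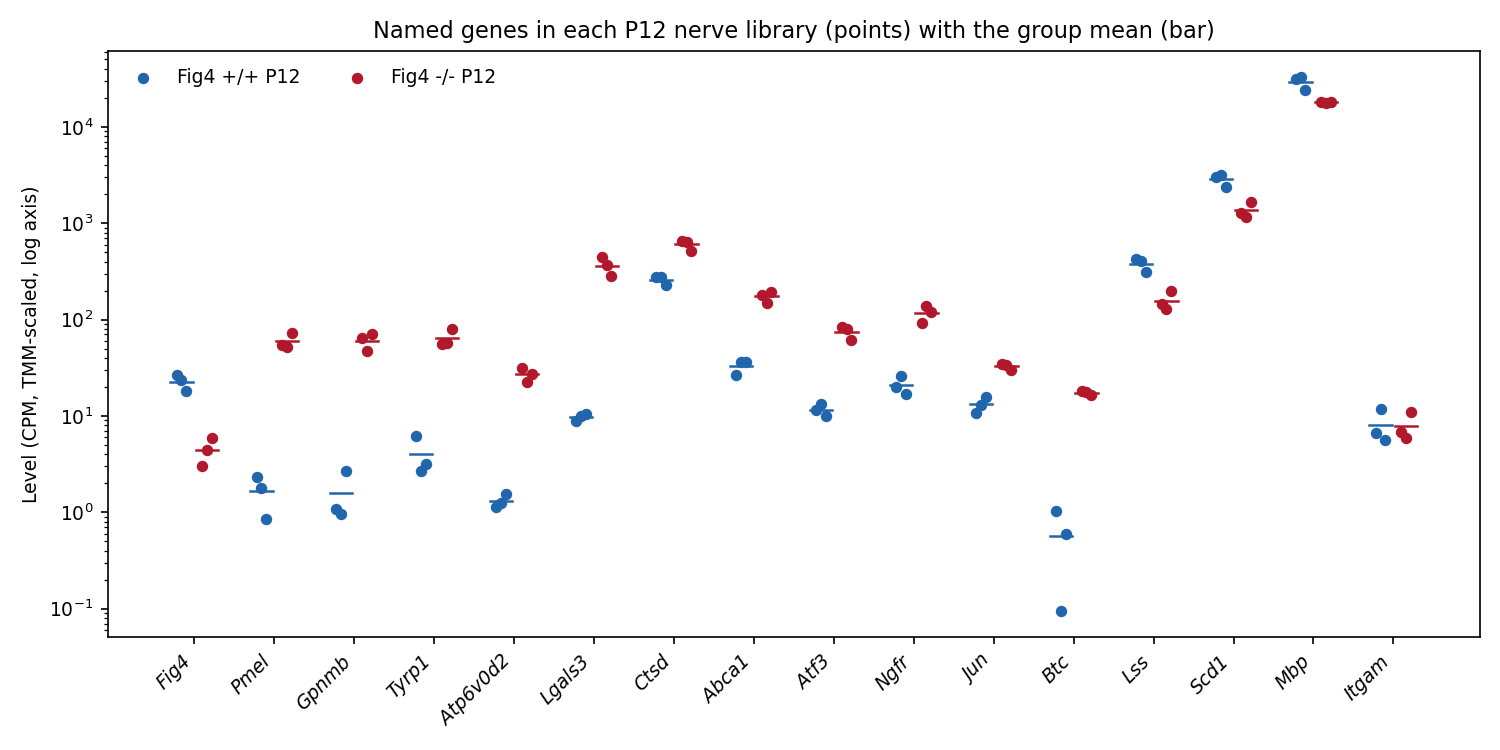
Points are the levels of 16 named genes in each P12 library (CPM, log axis, 3 libraries per genotype), and short bars are group means. Fig4, Lss, Scd1 and Mbp lie lower in null nerve, Itgam overlaps between the genotypes, and the remaining 11 genes lie higher in null nerve.

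Genes known from pigment cells, where MITF controls them, gave some of the largest rises. Pmel, the fibril protein of melanosomes, was at 2.34, 1.77 and 0.861 CPM in the +/+ libraries and 54.8, 52.1 and 72.3 CPM in the null libraries. The 3 null values lay far above the +/+ values, with a difference of 5.17 ± 0.31 (log2, SE; edgeR adjusted p = 8.24e-06). Gpnmb, a glycoprotein of melanosomes and lysosomes that macrophages also make, was at 1.08, 0.957 and 2.67 CPM against 64.1, 46.8 and 70.9 CPM. Its difference was 5.27 ± 0.37 (log2, SE; edgeR adjusted p = 5.56e-05), again without overlap. Tyrp1, a melanosomal enzyme of melanin synthesis, rose by 3.99 ± 0.31 (log2, SE; edgeR adjusted p = 7.61e-05), from 6.26, 2.68 and 3.17 CPM to 55.2, 56.6 and 80.0 CPM. Met, the receptor of hepatocyte growth factor, rose by 1.23 ± 0.14 (edgeR adjusted p = 0.000732). These 4 were the called members among 9 tested of the 17 on the pigment list, with a median of 1.55. Tyr, the first enzyme of melanin synthesis, and Mlana, Slc45a2, Trpm1, Slc24a5, Gpr143 and Mc1r were at 0 in all 6 libraries, and Dct reached at most 1.44 CPM. Sox10, Rab27a, Rab38 and Mlph were tested and did not pass. The list thus held members that were high in null nerve, tested members without a call, and members at or near 0 in every library. The part of pigment cells in the rise was not tested.

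The MiT/TFE factors themselves did not pass the test. Mitf was at 27.9, 20.5 and 28.0 CPM in the +/+ libraries and 17.8, 17.8 and 28.1 CPM in the null libraries, a difference of -0.26 ± 0.22 (log2, SE; edgeR adjusted p = 0.611) with overlapping groups. Tfeb differed by 0.18 (edgeR adjusted p = 0.876) and Tfe3 by -0.16 (edgeR adjusted p = 0.682). Flcn, the folliculin gene whose product holds TFE factors in the cytoplasm, differed by 0.51 (edgeR adjusted p = 0.242). Rragd, a GTPase that recruits mTORC1 to lysosomes and a known MiT/TFE target, rose from 8.60, 7.89 and 11.4 CPM to 15.2, 19.6 and 28.0 CPM (1.18 ± 0.26, edgeR adjusted p = 0.0337) and was the called gene among 11 of this list. Its call was kept in 2 of the 6 fits that left out a library.

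Pmel, first by edgeR p-value in the pigment list, had no promoter window. The promoter of Gpnmb, second by p-value, is shown. It is the RefSeq window from 250 bases before to 50 bases after the gene's start, on GRCm38.p6, which is mm10, at chr6:49036268-49036567 on the plus strand. Capitals mark letters that match TGANTCA, the AP-1 motif (1 match, at position 259 of the window); both strands were searched.
Gpnmb: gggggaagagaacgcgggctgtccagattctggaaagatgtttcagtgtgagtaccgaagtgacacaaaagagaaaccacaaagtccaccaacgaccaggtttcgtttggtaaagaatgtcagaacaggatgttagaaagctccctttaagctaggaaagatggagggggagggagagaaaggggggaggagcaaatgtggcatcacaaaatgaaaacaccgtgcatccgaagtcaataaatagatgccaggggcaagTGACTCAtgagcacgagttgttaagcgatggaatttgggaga
The MiT/TFE core TCACGTG and the E-box CACGTG (which the core contains) were not among the letters of this window. Shares below are over genes with 1 such window, 7875 of the 14338 tested, 166 of the 268 higher and 97 of the 167 lower genes. TGANTCA was in 4.51% of the windows of all tested genes, 10.2% of those called higher (17 windows) and 1.03% of those called lower (1 window). TCACGTG was in 6.06%, 6.63% and 5.15% of them.

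Genes of the lysosome rose in part. Atp6v0d2, an isoform of the d subunit of the proton pump (V-ATPase) that acidifies lysosomes, was at 1.13, 1.24 and 1.54 CPM in the +/+ libraries and 31.6, 22.5 and 27.5 CPM in the null libraries. All null values were above all +/+ values, and the difference was 4.39 ± 0.27 (log2, SE; edgeR adjusted p = 7.4e-06). Atp6v1b2, the common B subunit, went from 81.9, 73.0 and 83.0 CPM to 158, 191 and 153 CPM (1.08 ± 0.13, edgeR adjusted p = 0.000838). These were the 2 called subunits of 20, with a list median of 0.22. Among 18 tested lysosome membrane proteins 3 were higher and 0 lower (median 0.25), 1 of them Gpnmb. Cd63, a tetraspanin of late endosomes, was at 232, 246 and 266 CPM against 641, 624 and 619 CPM (1.35 ± 0.11, edgeR adjusted p = 6.06e-05), and Cd68, a macrophage-rich lysosomal glycoprotein, rose by 1.55 (edgeR adjusted p = 0.0105). Lamp1, the common lysosomal membrane glycoprotein, differed by 0.25 (edgeR adjusted p = 0.36).

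Cathepsins, the proteases of the lysosome, gave 7 higher and 0 lower genes among 12 tested, with a median of 0.57. Ctss, a cathepsin of antigen-presenting cells, was at 30.4, 35.4 and 30.7 CPM in the +/+ libraries and 107, 75.5 and 101 CPM in the null libraries (1.56 ± 0.16, edgeR adjusted p = 0.000302). Ctsd, a widely expressed aspartic protease, was at 274, 276 and 226 CPM against 653, 637 and 518 CPM (1.23 ± 0.14, edgeR adjusted p = 0.000531). Lgmn, the asparagine-specific protease legumain, rose by 0.98 and Ctsb by 0.94 (edgeR adjusted p = 0.00381 for Ctsb). Ctsz (0.82), Ctsa (0.64) and Ctsl (0.50) made up the rest of the 7. Between 5 and 7 of the list were called when a library was left out. As covariates, the muscle score left 1 (list median 0.64) and the Y-linked sum 2 (list median 0.66). Of 31 other tested hydrolases 5 were higher and 0 lower (median 0.25). Gla, alpha-galactosidase A, rose from 12.5, 10.05 and 8.38 CPM to 29.3, 24.1 and 25.2 CPM (1.35 ± 0.21, edgeR adjusted p = 0.00512), and Hexa, the alpha subunit of hexosaminidase, rose by 0.75 (edgeR adjusted p = 0.00841). The beta subunit of hexosaminidase, spelled hexb in the table and so outside that count, rose by 0.99 ± 0.15 (log2, SE; edgeR adjusted p = 0.00384).

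The promoter of Ctsd, on GRCm38.p6 at chr7:142387778-142388077 on the minus strand and printed along the gene, was chosen after its motif matches were seen. Capitals mark matches of TCACGTG on either strand, at positions 6, 152 and 153 of the window; the last 2 overlap on opposite strands.
Ctsd: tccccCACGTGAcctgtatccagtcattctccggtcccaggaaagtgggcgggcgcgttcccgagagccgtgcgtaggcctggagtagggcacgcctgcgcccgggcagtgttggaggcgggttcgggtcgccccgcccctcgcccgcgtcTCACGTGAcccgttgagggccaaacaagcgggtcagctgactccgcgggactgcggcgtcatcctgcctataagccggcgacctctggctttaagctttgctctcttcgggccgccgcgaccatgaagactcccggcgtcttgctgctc
TCACGTG was in 13 of the 55 windows of the lysosomal lists combined (23.6%), against 6.06% of the windows of all tested genes. A match says only that the letters are there.

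Galectin-3 had the smallest p-value in the comparison. Lgals3, a sugar-binding protein that gathers on damaged lysosomes and is made by activated macrophages and Schwann cells, was at 8.87, 9.90 and 10.5 CPM in the +/+ libraries and 441, 366 and 282 CPM in the null libraries. The difference was 5.23 ± 0.19 (log2, SE; edgeR adjusted p = 7.48e-08). Lgals1, galectin-1, rose from 114, 166 and 156 CPM to 415, 433 and 320 CPM (1.43 ± 0.17, edgeR adjusted p = 0.000732), so that 2 of 6 tested galectins were called. Core autophagy genes and receptors gave 2 higher genes and 0 lower among 28, with a median of 0.03. These 2 were Sqstm1, the cargo receptor p62 (0.77 ± 0.14, edgeR adjusted p = 0.0111), and Gabarapl1, an autophagosome protein (0.74 ± 0.13, edgeR adjusted p = 0.0125). Both were called in 4 of the 6 fits that left out a library.

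Repair Schwann cell genes had the highest median of the pathway lists, 2.48 over 25 tested members, of which 15 were higher and 0 lower. The list was chosen with earlier results of these data known. Members near 0 in +/+ nerve, such as Gdnf, reached the count filter through the null libraries. The rank and the count of this list are therefore partly built in. Atf3, a stress and injury transcription factor of the AP-1 family, was at 11.7, 13.2 and 9.92 CPM in the +/+ libraries and 83.8, 80.5 and 61.1 CPM in the null libraries (2.71 ± 0.19, edgeR adjusted p = 1.43e-05). Hmga1, a chromatin architectural protein, was at 3.11, 2.15 and 1.86 CPM against 30.8, 25.0 and 22.04 CPM (3.46 ± 0.27, edgeR adjusted p = 4.57e-05). Ngfr, the p75 neurotrophin receptor that marks immature and repair Schwann cells, was at 20.2, 26.0 and 16.8 CPM against 91.0, 137 and 121 CPM (2.48 ± 0.20, edgeR adjusted p = 4.57e-05). None of these groups overlapped. Jun, the repair factor, rose by less, from 10.8, 12.9 and 15.8 CPM to 34.2, 33.9 and 30.01 CPM (1.32 ± 0.19, edgeR adjusted p = 0.00348). Runx2, a transcription factor of bone, rose by 3.37 (edgeR adjusted p = 0.000298), Gfap, an intermediate filament of non-myelinating Schwann cells, by 3.14 (edgeR adjusted p = 0.00709) and Sox2, a factor of immature Schwann cells, by 1.51 (edgeR adjusted p = 0.00908). Btc, the ErbB ligand betacellulin, was at 1.04, 0.0957 and 0.589 CPM against 17.9, 17.8 and 16.4 CPM (4.91 ± 0.52, edgeR adjusted p = 0.000531). Gdnf, a survival factor for neurons, was at 0, 0.0957 and 0 CPM in the +/+ libraries and 1.04, 2.56 and 5.60 CPM in the null libraries (edgeR adjusted p = 0.0166). Shh, the hedgehog ligand, did not pass (edgeR adjusted p = 0.0876). Olig1 (edgeR adjusted p = 0.0989) did not pass either, a transcription factor at 0 in all +/+ libraries and at 28, 24 and 11 counts in the null libraries, at least 20.6-fold higher against a floor of 3 counts over the group. The 15 became 9 to 17 when a library was left out. As covariates, the muscle score left 4 (list median 2.86) and the Y-linked sum 7 (list median 2.55).

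The promoter of Atf3 is shown as that of a repair gene with 1 of the smallest p-values. It lies at chr1:191183284-191183583 (minus strand) of GRCm38.p6. Capitals mark CCAAT, the NF-Y motif, on the opposite strand, at position 256.
Atf3: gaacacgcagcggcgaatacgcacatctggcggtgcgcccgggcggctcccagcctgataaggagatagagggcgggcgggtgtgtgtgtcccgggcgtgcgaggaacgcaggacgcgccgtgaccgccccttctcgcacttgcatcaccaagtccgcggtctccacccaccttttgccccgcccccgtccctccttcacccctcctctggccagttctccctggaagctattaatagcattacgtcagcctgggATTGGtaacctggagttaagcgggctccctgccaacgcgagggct
CCAAT was in 38.9% of the windows of all tested genes.

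Of 11 tested AP-1 and ATF factors 3 were higher and 0 lower (median 1.19): Atf3, Jun and Fosl2 (1.19, edgeR adjusted p = 0.00196), while Fos differed by 1.30 (edgeR adjusted p = 0.0588). Cd44, the hyaluronan receptor, was at 20.9, 24.3 and 24.2 CPM in the +/+ libraries and 108, 89.2 and 104 CPM in the null libraries (2.12 ± 0.15, edgeR adjusted p = 1.43e-05). Fgd3, an exchange factor for the GTPase CDC42, was at 2.07, 2.25 and 1.77 CPM against 32.3, 32.8 and 30.8 CPM (3.98 ± 0.22, edgeR adjusted p = 3.58e-06). Each null value of both genes was several times the highest +/+ value. Syt4, a synaptotagmin of vesicle traffic, went from 19.98, 15.3 and 10.7 CPM to 146, 122 and 104 CPM (3.03 ± 0.23, edgeR adjusted p = 4.57e-05). Tnfrsf12a, the receptor of the cytokine TWEAK, rose by 3.14 (edgeR adjusted p = 7.38e-05). Clcf1, a gp130 cytokine, rose by 3.12 (edgeR adjusted p = 0.01). The growth factor and cytokine list gave 3 higher and 1 lower of 14. Igf2, insulin-like growth factor 2, was lower, at 1621, 2026 and 1665 CPM in the +/+ and 1091, 813 and 1252 CPM in the null libraries (-0.74, edgeR adjusted p = 0.0347). Tgfa, the ErbB ligand TGF-alpha, fell by 0.86 (edgeR adjusted p = 0.00685), the reverse direction of Btc. Of 10 tested hedgehog pathway genes edgeR called 0, 2 had an unadjusted p under 0.05 and DESeq2 called 1.

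**Figure D3:**
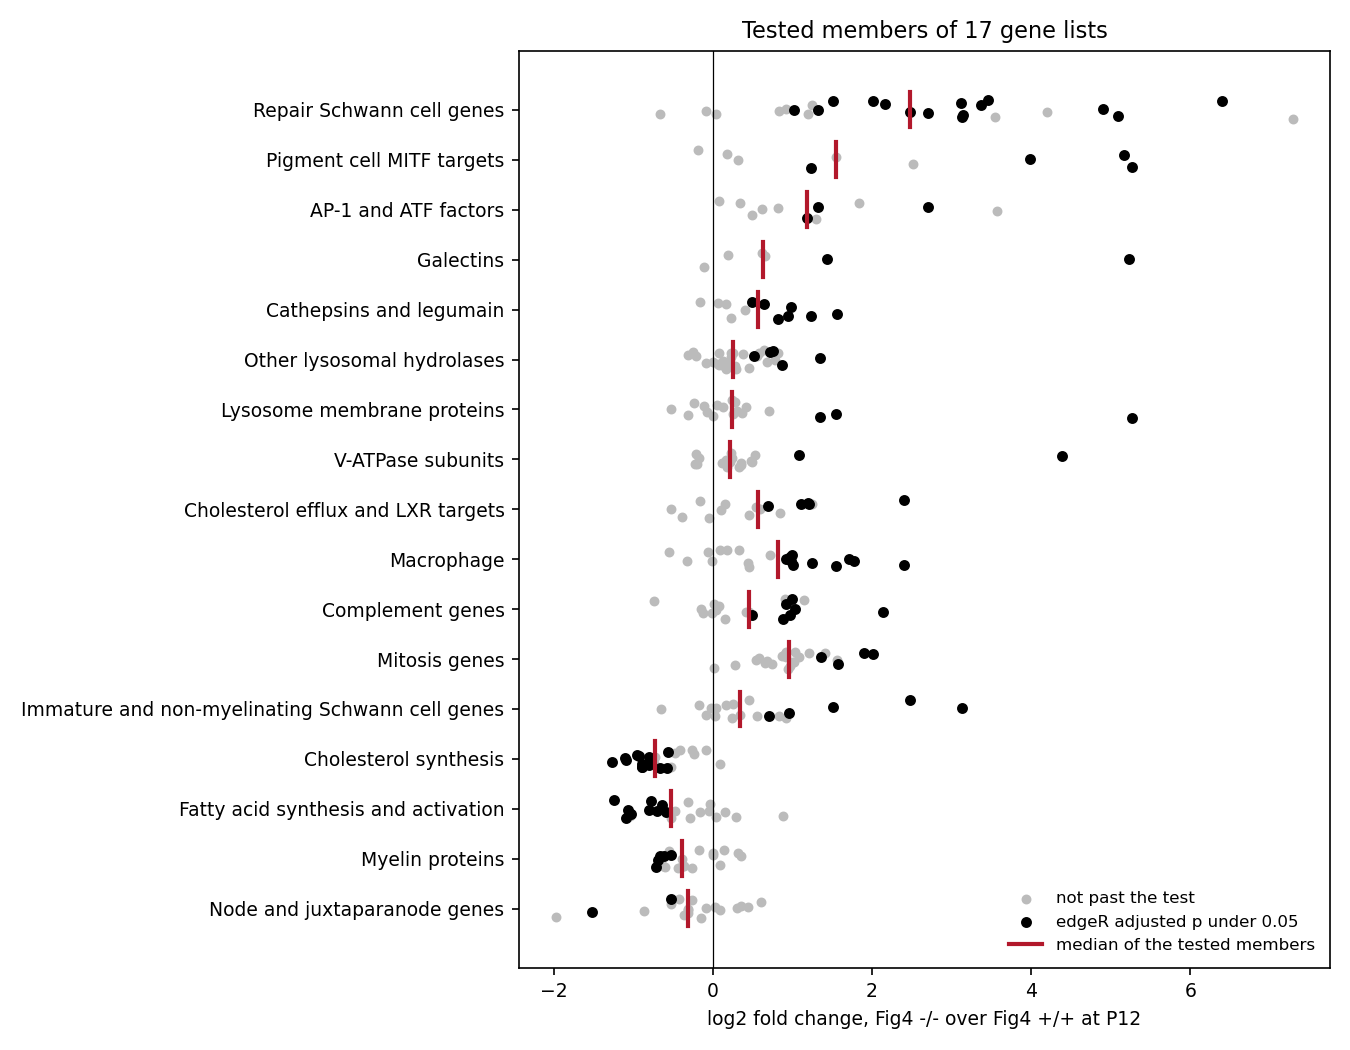
Each point is a tested member of 1 of 17 gene lists, placed by its log2 fold change (null over +/+ at P12), black where the edgeR adjusted p is under 0.05 and grey where it is not, and red bars are medians. The repair list has 15 black points to the right, the cholesterol synthesis list 13 to the left, and the myelin protein list 5 to the left.

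Cholesterol synthesis genes were lower as a block. Of 22 tested enzymes 13 were lower and 0 higher, with a median of -0.73, and 17 of the 22 had all null libraries below all +/+ libraries (12% of all tested genes). Lss, lanosterol synthase, was at 421, 405 and 313 CPM in the +/+ libraries and 144, 129 and 198 CPM in the null libraries (-1.27 ± 0.17, edgeR adjusted p = 0.00209). Hmgcs1, HMG-CoA synthase, was at 5528, 5013 and 4124 CPM against 2215, 1853 and 2703 CPM (-1.11 ± 0.17, edgeR adjusted p = 0.00477). In both genes null replicate 3 was the highest null library and +/+ replicate 3 the lowest +/+ library. Sc5d (-0.92), Msmo1 (-0.89) and Sqle (-0.89, edgeR adjusted p = 0.0112) were among the other lower enzymes. The number of lower enzymes was 5 to 15 when a library was left out and 0 with either covariate. There the list median was -0.58 (muscle score) and -0.62 (Y-linked sum).

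Among the genes that control sterol supply, Stard4, a sterol carrier, was at 175, 159 and 156 CPM in the +/+ libraries and 60.4, 77.1 and 105 CPM in the null libraries (-1.01 ± 0.17, edgeR adjusted p = 0.00949). Insig1, the sterol-sensing brake on SREBP processing, was lower too (-1.03, edgeR adjusted p = 0.0244). Srebf2, the gene of SREBP2 itself, differed by -0.41 (edgeR adjusted p = 0.124). Genes that export or store cholesterol moved the other way, with 5 higher and 0 lower of 16 (median 0.56). Abca1, the cholesterol export pump, was at 26.7, 36.5 and 36.6 CPM against 182, 150 and 195 CPM (2.41 ± 0.16, edgeR adjusted p = 1.43e-05). Apoe, the lipoprotein that carries exported cholesterol, was at 251, 324 and 239 CPM against 672, 635 and 541 CPM (1.19 ± 0.15, edgeR adjusted p = 0.00106). Plin2, a lipid droplet coat protein (1.21), and Nceh1, which hydrolyses stored cholesterol esters (1.10), each had an edgeR adjusted p of 0.00166. Mylip, a ubiquitin ligase controlled by sterols, rose by 0.70 (edgeR adjusted p = 0.0405).

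The promoters of Lss and Hmgcs1 are shown as members of the falling block, the second chosen after its matches were seen. They lie at chr10:76531355-76531654 and chr13:119690101-119690400 of GRCm38.p6, both on the plus strand. Capitals mark CCAAT on either strand and, in Hmgcs1 at position 114, TCACNCCAC, the sterol response element; CCAAT matches stand at position 189 in Lss and at 14, 75, 206 and 261 in Hmgcs1.
Lss: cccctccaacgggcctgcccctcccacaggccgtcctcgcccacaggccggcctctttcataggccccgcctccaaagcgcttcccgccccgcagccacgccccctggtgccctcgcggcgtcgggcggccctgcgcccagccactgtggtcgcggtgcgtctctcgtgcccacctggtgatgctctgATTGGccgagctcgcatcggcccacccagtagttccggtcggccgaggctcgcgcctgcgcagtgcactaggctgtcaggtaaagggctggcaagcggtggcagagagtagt
Hmgcs1: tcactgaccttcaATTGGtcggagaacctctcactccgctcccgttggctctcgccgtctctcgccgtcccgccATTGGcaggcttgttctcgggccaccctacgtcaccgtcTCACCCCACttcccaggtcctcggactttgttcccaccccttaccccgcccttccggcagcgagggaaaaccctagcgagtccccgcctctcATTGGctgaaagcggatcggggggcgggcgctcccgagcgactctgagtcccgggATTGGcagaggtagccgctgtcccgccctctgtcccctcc
CCAAT was in 14 of the 15 cholesterol synthesis windows (93.3%) and in 10 of the 15 fatty acid synthesis windows (66.7%), against 38.9% of the windows of all tested genes. TCACNCCAC was in 1 of the 15 cholesterol synthesis windows (6.67%), against 1.08% of all.

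Fatty acid synthesis and activation genes followed the sterol enzymes, with 9 lower and 0 higher of 21 and a median of -0.52. Acsl3, which activates long-chain fatty acids, was at 261, 256 and 197 CPM in the +/+ libraries and 105, 105 and 124 CPM in the null libraries (-1.09 ± 0.14, edgeR adjusted p = 0.00133). Scd1, which makes monounsaturated fatty acids, was at 3009, 3175 and 2370 CPM against 1289, 1148 and 1639 CPM (-1.06 ± 0.17, edgeR adjusted p = 0.00512). Acly, which makes cytosolic acetyl-CoA, fell by 0.81 (edgeR adjusted p = 0.00307) and Acss2, which makes it from acetate, by 1.25 (edgeR adjusted p = 0.0115). Leaving out a library gave 2 to 10 lower genes, and either covariate gave 0, with list medians of -0.37 (muscle score) and -0.59 (Y-linked sum). With the replicate block 5 were lower.

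Myelin protein genes were lower by smaller amounts, with 5 lower and 0 higher of 20 and a median of -0.39. The 5 became 0 to 7 when a library was left out, 2 with a replicate block and 0 with either covariate. Medians were -0.34 with the muscle score and -0.27 with the Y-linked sum. DESeq2 called 11 lower and 1 higher, and 9 were lower without the low-count filter. Mbp, myelin basic protein, was at 31012, 32530 and 23840 CPM in the +/+ libraries and 18249, 17477 and 18271 CPM in the null libraries (-0.69 ± 0.17, edgeR adjusted p = 0.0495), a call kept in 1 of 6 fits that left out a library. Cldn19, a claudin of myelin junctions (-0.61, edgeR adjusted p = 0.0233), Drp2, of the dystroglycan complex at myelin appositions (-0.67, edgeR adjusted p = 0.0257), and Ugt8a, which makes galactolipid (-0.72, edgeR adjusted p = 0.0428), were also called. Pmp22, a myelin membrane protein, did not pass (-0.39, edgeR adjusted p = 0.351). The transcription factors of myelination gave 1 lower gene of 16, Nab1 (-0.57, edgeR adjusted p = 0.0342), a partner of EGR2. Egr2, which turns on myelin genes, differed by 0.08 (edgeR adjusted p = 0.914). Ndrg1, a protein rich in myelinating Schwann cells that names another group of the series, differed by 0.00. Cntn1, contactin-1 of the paranode, was lower, at 38.2, 32.3 and 36.2 CPM in the +/+ libraries and 8.06, 14.7 and 14.4 CPM in the null libraries (-1.52 ± 0.23, edgeR adjusted p = 0.00437). Genes of immature and non-myelinating Schwann cells gave 5 higher and 0 lower of 19 (median 0.34), among them Id2, an inhibitor of differentiation (0.95, edgeR adjusted p = 0.0184), and Cadm2, an adhesion molecule (0.70, edgeR adjusted p = 0.0494). In whole nerve, fewer cells of a type and less RNA per cell cannot be told apart.

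Cell division genes were on the higher side, with few calls. All 24 tested mitosis genes had a positive log2 change, with a median of 0.96, and 4 were called higher: Ccnb1 (1.90) and Cdk1 (1.36), the cyclin and kinase that start mitosis (edgeR adjusted p = 0.0176 for both), the checkpoint kinase Bub1 (2.02, edgeR adjusted p = 0.029) and Prc1, a spindle protein (1.58, edgeR adjusted p = 0.031). The 4 became 0 to 4 when a library was left out, 7 with DESeq2 and 0 with either covariate. Medians were 1.06 with the muscle score and 1.28 with the Y-linked sum. The proliferation marker Mki67 differed by 0.75 (edgeR adjusted p = 0.294). DNA replication genes gave 1 higher of 24, Mcm6 (1.15, edgeR adjusted p = 0.0472), with a median of 0.51. Ccnd1, cyclin D1, rose from 137, 199 and 237 CPM to 351, 383 and 435 CPM (1.03 ± 0.18, edgeR adjusted p = 0.0112).

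Macrophage genes gave 10 higher and 0 lower of 20, with a median of 0.82. Their summed level was 670, 822 and 676 CPM in the +/+ libraries and 1262, 1131 and 1530 CPM in the null libraries. Mpeg1, a pore-forming protein of macrophages, was at 27.0, 35.8 and 25.8 CPM against 147, 122 and 196 CPM (2.40 ± 0.19, edgeR adjusted p = 5.56e-05). Lyz2, lysozyme, rose by 1.25 (edgeR adjusted p = 0.000158), Trem2, a lipid receptor, by 1.78 (edgeR adjusted p = 0.0049) and Adgre1, the F4/80 antigen, by 0.92 (edgeR adjusted p = 0.0157). Other defining genes did not pass: Itgam, the integrin CD11b, was at 6.71, 11.7 and 5.57 CPM against 6.80, 5.85 and 11.1 CPM with overlapping groups. Csf1r, the receptor that keeps macrophages alive, differed by 0.18, the pan-leukocyte gene Ptprc by 0.33, and Mrc1 and Cd163, of resident macrophages, by -0.06 and -0.32. Several genes described above (Gpnmb, Lgals3, Ctss, Cd68 and Apoe) are also made by macrophages, and the part of these cells in their rise was not tested. The 10 became 4 to 10 when a library was left out. As covariates, the muscle score left 5 (list median 1.13) and the Y-linked sum 2 (list median 0.84).

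Complement genes gave 7 higher and 0 lower of 19 (median 0.46), but 0 to 5 when a library was left out. C1qb, of the first complement component, rose by 1.00 (edgeR adjusted p = 0.0136), and C4b was at 22.6, 23.7 and 26.3 CPM in the +/+ libraries and 56.4, 55.1 and 35.8 CPM in the null libraries (1.03 ± 0.19, edgeR adjusted p = 0.0149). C3, the central component, was at 0.765, 1.15 and 3.22 CPM against 9.25, 6.59 and 6.60 CPM (2.13 ± 0.51, edgeR adjusted p = 0.0447). Chemokines and their receptors gave 3 higher of 20. Cxcl14 was at 2.48, 2.73 and 2.36 CPM against 44.7, 42.3 and 22.4 CPM (3.86 ± 0.29, edgeR adjusted p = 3.16e-05), and Ccl8, which draws monocytes, rose by 3.85 (edgeR adjusted p = 0.000733). Of 17 interferon response genes (median 0.24) edgeR and DESeq2 called 0, and 4 had an unadjusted p under 0.05. Of 21 genes of the integrated stress and unfolded protein responses (median -0.04) edgeR called 0 and DESeq2 1, and 2 had an unadjusted p under 0.05. The neutrophil genes S100a8, Ly6g, Camp, Ngp and Ltf and the lymphocyte genes Cd8a, Nkg7 and Gzma were at 0 in all 6 libraries. Other members had counts, and the neutrophil list summed to 2.07 to 3.53 CPM in +/+ and 2.11 to 5.60 CPM in null libraries. The T, NK and B cell list summed to 5.02 to 9.47 CPM in +/+ and 3.99 to 10.4 CPM in null libraries. EdgeR called 0 of the 2 neutrophil (median 0.64) and 4 T, NK and B cell genes tested (median 0.45), and DESeq2 called 0 of either list.

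Of 23 matrix proteases, inhibitors and secreted matrix proteins 5 were higher and 0 lower. Tnc, tenascin-C, a matrix protein of developing and injured nerve, was at 13.1, 13.5 and 10.4 CPM in the +/+ libraries and 65.2, 56.6 and 43.2 CPM in the null libraries (2.16 ± 0.20, edgeR adjusted p = 0.000104). Timp1, an inhibitor of matrix proteases, was at 0.405, 0.957 and 1.90 CPM against 11.1, 8.37 and 7.26 CPM (3.04 ± 0.50, edgeR adjusted p = 0.00815). Spp1, osteopontin, was at 103, 64.0 and 92.8 CPM against 501, 385 and 237 CPM (2.12 ± 0.30, edgeR adjusted p = 0.014). Apod, a lipid carrier of nerve fibroblasts and Schwann cells, was at 1123, 938 and 870 CPM against 3946, 3511 and 2791 CPM (1.81 ± 0.17, edgeR adjusted p = 0.000104). Dpt, a fibroblast matrix protein, fell by 1.13 (edgeR adjusted p = 0.00988) and Kdr, the endothelial receptor of VEGF, by 0.65 (edgeR adjusted p = 0.0315). Each was the called lower gene of its marker list, of 14 fibroblast and 13 endothelial genes. EdgeR called 0 of 10 pericyte, 10 perineurial, 8 adipocyte and 10 Schwann cell markers, of which 0, 1, 1 and 4 had an unadjusted p under 0.05, and DESeq2 called 0, 1, 1 and 4. Gstp1, a glutathione transferase, was at 47.5, 47.2 and 45.7 CPM against 126, 125 and 117 CPM (1.40 ± 0.12, edgeR adjusted p = 6.38e-05), 1 of 3 higher genes among 17 Nrf2 targets (0 lower). Erythrocyte markers summed to 179, 256 and 265 CPM in the +/+ libraries and 574, 300.02 and 633 CPM in the null libraries, with 1 higher of 5 tested, the beta-globin Hbb-bs, and a list median of 1.05. DESeq2 called 2 of them, and the part of blood in the other differences was not tested. A further 3 genes fell with small p-values: Tmem245, a membrane protein (-1.06, edgeR adjusted p = 0.00181), Adgb, androglobin (-2.17, edgeR adjusted p = 0.00381), and Hspa4l, a heat shock protein (-1.07, edgeR adjusted p = 0.00512).

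Some genes had no count at all in 1 genotype. With a mean of at least 10 counts in the other genotype, 116 genes were at 0 in all +/+ libraries and 80 at 0 in all null libraries, and 8 of these were called. The called genes included the Y-linked Eif2s3y, Uty and Kdm5d, a predicted gene and a clone. Some of the uncalled genes had counts in 1 library alone, such as Nutf2-ps1 with 895, 0 and 0 counts in the null libraries. Tfap2a, a transcription factor of neural crest and early Schwann cells, had 99, 54 and 25 counts in the null libraries, at least 58.2-fold higher (edgeR adjusted p = 0.0142). Slc26a7, an anion transporter, had 48, 43 and 60 counts, at least 49.4-fold higher (edgeR adjusted p = 0.0151). Tnnc2, a troponin of fast skeletal muscle, had 16, 211 and 23 counts in the +/+ libraries and 0 in the null libraries, at least 84.9-fold lower (edgeR adjusted p = 0.0414), and was the called gene of the 9 tested skeletal muscle markers. These bounds use a floor of 3 counts over the group that was at 0, and cover counting error only.

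The same genotypes were compared at P4, in separate samples. The edgeR test called 1 of 14888 genes at P4 (0.00672%), Fig4, which was at 30.3 ± 3.50 CPM in +/+ nerve and 4.46 ± 0.381 CPM in null nerve (SD, n = 3), and 126 genes had an unadjusted p under 0.05 there. DESeq2 called 7. Of the 253 genes called higher at P12 that were also tested at P4, 187 had a positive log2 change at P4, against 50.2% of all genes, with a median of 0.12. Of the 160 lower genes 55 had a negative change there, with a median of 0.03. Pmel was at 27.6 ± 17.1 CPM in +/+ and 167 ± 42.2 CPM in null nerve at P4, Tyrp1 at 3.50 ± 0.69 and 13.0 ± 3.74 CPM, and Gpnmb at 4.70 ± 3.38 and 24.7 ± 13.3 CPM (SD, n = 3 each). These 3 genes did not pass the P4 test, and the difference between their P12 and P4 changes did not pass the edgeR interaction test (adjusted p = 0.185 for Pmel, 0.143 for Tyrp1 and 0.264 for Gpnmb). The cholesterol synthesis list had a median of 0.08 at P4, the myelin list 0.03 and the repair list 0.23.

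The interaction test called 23 of 13765 genes (0.167%), 21 of them with a higher null effect at P12 than at P4. Lgals3 was at 11.6 ± 4.67 CPM in +/+ and 36.3 ± 13.9 CPM in null nerve at P4 (SD, n = 3), and its effect was larger at P12 by 3.59 on the log2 scale. Hmga1 was at 31.8 and 30.6 CPM at P4 and Tnc at 71.1 and 72.4 CPM, +/+ first. For Hmga1 and Tnc the null level at P12 lay nearer to the P4 levels than the +/+ level at P12 did. For Lgals3 the +/+ level at P12 lay nearer. These levels were set side by side from tables that were scaled separately. The P4 libraries were uneven, since muscle markers summed to 17789 CPM in +/+ replicate 1 and 14920 CPM in null replicate 3. Y-linked genes summed to 98.7 and 102 CPM in P4 null replicates 1 and 2 and to under 1 CPM in null replicate 3 and all +/+ libraries, so genotype and sex were also unevenly matched at P4. The interaction count went from 23 to 2 with a replicate block, to 151 with DESeq2 and to 71 with the muscle score as a covariate.

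**Figure D4:**
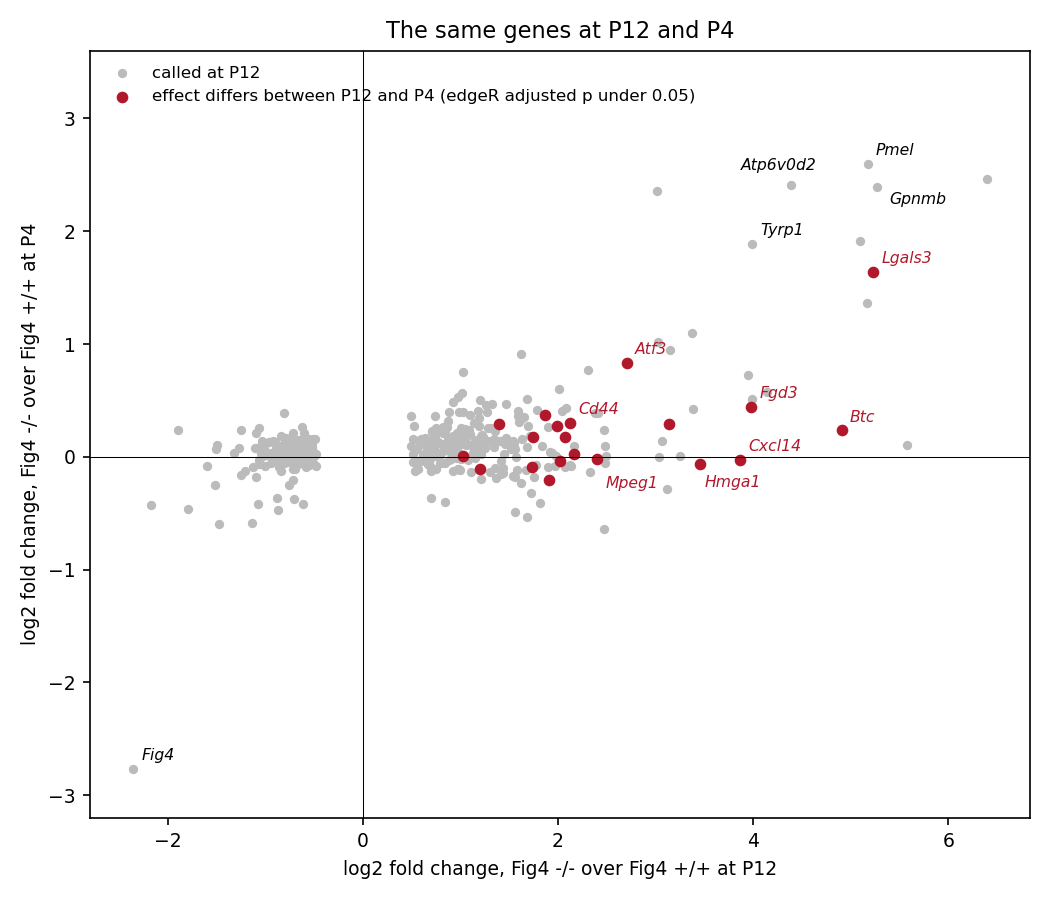
Each point is a gene tested at both ages and called at P12 or by the interaction test, with its log2 fold change (null over +/+) at P12 on the horizontal and at P4 on the vertical axis; red points differ between the ages by the edgeR interaction test. Pmel, Gpnmb, Tyrp1 and Atp6v0d2 lie to the upper right and are not red, Lgals3, Hmga1 and Cxcl14 are red, and 4 genes beyond an absolute P12 log2 change of 6.5 are not drawn.

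Many of these genes also differed after nerve injury. Of 15245 genes tested at 3 days post injury, 22.1% were called (11.7% higher and 10.4% lower). Among the 261 genes called higher in P12 null nerve and tested after injury, 158 were higher after injury and 5 lower, and among 166 lower genes 111 were lower and 0 higher. The median after injury was 2.20 for the repair list (14 higher and 0 lower), -0.95 for cholesterol synthesis (16 lower and 0 higher) and -0.90 for myelin proteins (10 lower, 1 higher), beside 2.48, -0.73 and -0.39 at P12. Mitosis genes had a median of 3.25 after injury against 0.96 at P12. The pigment list gave 0 higher and 1 lower of 7 after injury.

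A direct test of the difference, chosen after the data were seen, set the P12 null effect against the injury effect and called 52 of 16716 genes (0.311%). Over all tested genes 20 were called higher (0.12%) and 32 lower (0.191%) by this test. Of the 268 genes higher at P12, 10 had a higher effect there than after injury. In 1, Timp1, it was smaller (-2.60 ± 0.42, edgeR adjusted p = 0.0382). The 268 were picked by P12 values that also enter this test, so an excess of higher effects among them was built in. Gpnmb had the largest difference of the 10, 4.52 ± 0.49 (log2, SE; edgeR adjusted p = 0.00466), with 34.4 ± 4.63 CPM in uninjured and 56.7 ± 26.2 CPM in injured nerve (SD, n = 4). Pmel was near 1 CPM in both injury groups (0.867 and 0.999 CPM), but its difference of 4.91 ± 1.04 did not pass (edgeR adjusted p = 0.0703). Gabarapl1, C3, Fxyd6, Gpr176 and Hbb-bs rose at P12 and were lower after injury. Gabarapl1 was at 387 ± 31 CPM uninjured and 254 ± 29.2 CPM injured, a difference between the effects of 1.31 ± 0.19 (edgeR adjusted p = 0.0172), and C3 at 370 ± 79.1 and 187 ± 60.4 CPM (3.10 ± 0.55, edgeR adjusted p = 0.0442). For Fxyd6, an ion pump regulator, the difference was 1.62 ± 0.27, for Gpr176, an orphan receptor, 2.59 ± 0.45 and for Hbb-bs, 1 of the erythrocyte markers, 2.36 ± 0.42 (edgeR adjusted p of 0.0382, 0.0382 and 0.041). C4b (1.57), Angpt2, a vessel growth factor (1.55), Atf3 (1.59) and Serinc5, a lipid scramblase (0.82), made up the 10. The effects on Ngfr (difference 0.38, edgeR adjusted p = 0.721), Jun (-0.05, edgeR adjusted p = 0.961) and Atp6v0d2 (0.35, edgeR adjusted p = 0.817) did not pass this test. The experiments differ in genotype label and in what was done to the nerve, and the labels give no age for the injury samples. Starting levels were unlike too, since C3 and Gpnmb were far lower in P12 +/+ nerve than in uninjured nerve. As covariates, the Y-linked sum left 1 call and the muscle score 10.

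**Figure D5:**
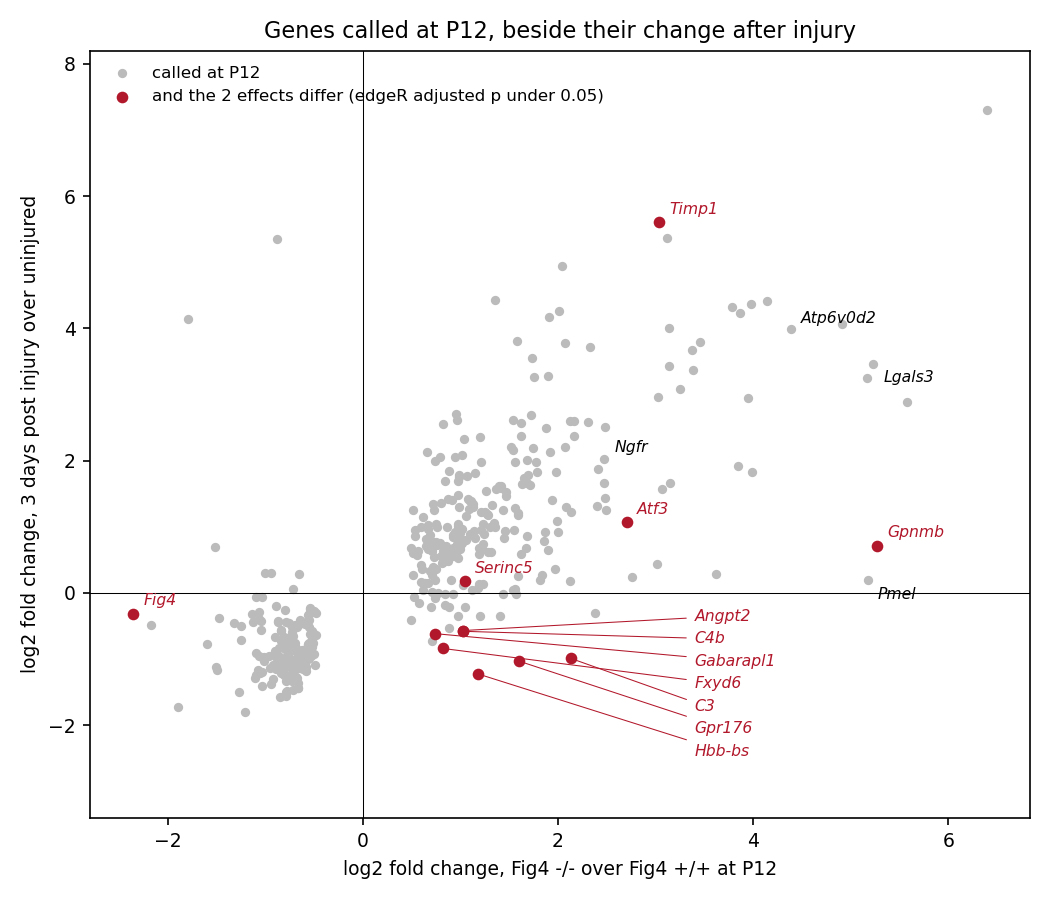
Each point is a gene called at P12 and tested in the injury experiment, with its log2 fold change in null over +/+ nerve at P12 (horizontal) and at 3 days post injury over uninjured (vertical); red genes differ between the experiments by the edgeR test of the difference. Most points lie in the upper right and lower left, Gpnmb lies far right with a small injury change, and 5 genes beyond an absolute P12 log2 change of 6.5 are not drawn.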

How the data were processed

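Total RNA of quick-frozen sciatic nerve was made into stranded mRNA libraries, per the labels' protocols. The estimated counts per gene were deposited by the authors, who used kallisto and the mm10 build per the submitters' processing notes; the tool's version, the annotation and how transcripts were summed per gene: not given in the sources used here. The counts were rounded, filtered with filterByExpr (minimum count 10), TMM-scaled, and compared by edgeR's two-sided quasi-likelihood test with robust dispersions (edgeR 4.0.16, R 4.3.3, limma 3.58.1). Called means a Benjamini-Hochberg adjusted p under 0.05 over all tested genes. Levels are TMM-scaled CPM computed from the deposited counts, and each SE was derived from the log2 change and the F statistic of its test. The P12 table (51444 genes) was fitted alone. The P4 and injury tables (53278 and 51444 genes) were fitted alone, and each entered a joint fit with the P12 table, in which within-table differences were contrasted. Columns not used numbered 0. No 2 replicates were the same library (lowest chi-square per degree of freedom 26.9 in +/+ and 54.6 in null nerve at P12).

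Named genes were Fig4, the 10 called genes of lowest p in each direction (log2 change beyond 1 in size, mean level from 1 CPM, no predicted, clone, pseudogene or sex-linked names), and of each of 50 lists the 5 members with the smallest p plus members that define the list. The comparison, lists and tests were chosen with earlier results of these data known. Alternatives were RLE scaling, no filter, DESeq2 1.42.0, a replicate block, a skeletal muscle or Y-linked covariate, and leaving out each library. The code was tested on simulated data. Positions are those of GENCODE vM21, matched by symbol for 12723 of the 14338 tested genes, and promoter windows those of RefSeq on GRCm38.p6. Some genes are not reported here.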

Additional observations from a re-analysis of the deposited data

Results flagged for a closer look

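The effect of Fig4 loss differed between P12 and P4 by the edgeR interaction test for 22 genes with a gene name, in 1 fit over both tables with 12 libraries, and adjusted p-values ran from 0.000452 (Fgd3 and Hmga1) to 0.0494. Values here are the P12 log2 change minus the P4 log2 change, and a positive value means a higher null effect at P12. Galectin, surface and signalling genes included Lgals3 at 3.59, Cd44 at 1.83, Fgd3 at 3.54, Gpc1, a surface proteoglycan, at 1.90, Dclk1, a microtubule-linked kinase, at 1.83, Tnfrsf12a at 2.85 and Plekho1 at 1.56. Secreted proteins were Cxcl14 at 3.90, Btc at 4.69 and Tnc at 2.15. The nuclear proteins Hmga1 and Atf3 were at 3.53 and 1.87, and the cell division genes Bub1, Pbk and Chaf1a at 2.06, 2.12 and 1.32. The macrophage gene Mpeg1 was at 2.42, and Gstp1, Uap1l1, Lurap1l and the sorting nexin Snx16 at 1.11, 1.501, 1.73 and 1.03. Slc26a7 was at 8.06 and the histone gene Hist3h2ba at -6.76, and both rest on a P12 genotype at 0, so that the fitted size depends on the prior count and is no bound. Hist3h2ba had 9, 15 and 13 counts in the P12 +/+ libraries and 0 in the null libraries, and did not pass the count filter of the P12 fit.

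The muscle-rich P4 libraries (+/+ replicate 1 and null replicate 3) enter these differences. So does the Y-linked signal of all 3 P12 null libraries and of P4 null replicates 1 and 2. The part of muscle and of Y-linked signal was not tested beyond the 2 covariate fits. Those called 71 genes (muscle score) and 19 genes (Y-linked sum). Leaving out 1 P12 library gave 5 to 14 genes and leaving out 1 P4 library 7 to 26, the most without +/+ replicate 1.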

How the results depend on the processing

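Some list medians changed direction in an alternative. With the Y-linked sum as a covariate, the median of the 2 tested neutrophil genes went from 0.64 to -1.20. That of the 4 tested T, NK and B cell genes went from 0.45 to -0.75. Larger lists changed sign too, with the fibroblast median going from -0.14 to 0.41 and the hedgehog median from 0.08 to -0.26. With the muscle score the collagen median went from -0.12 to 0.13. The neutrophil median was -0.30 without the low-count filter and -0.31 with DESeq2. These are examples, and other lists also changed sign. RLE scaling kept the P12 count (433 genes). Without the low-count filter 1131 genes were called (549 higher, 582 lower), and with DESeq2 962 (490 higher, 472 lower). As covariates, the muscle score left 33 (29 higher, 4 lower) and the Y-linked sum 54 (48 higher, 6 lower). The Y-linked sum separates the P12 genotypes in full, and the summed level of the muscle markers was lower in every P12 null library than in any +/+ library. These fits therefore compare libraries on what is left. Leaving out 1 P12 library gave 146 to 709 genes, 120 to 366 higher and 26 to 343 lower. At P4, DESeq2 called 7 genes, the replicate block 0 and the Y-linked covariate 0, and leaving out 1 library gave 0 to 1. The P12 minus P4 test went from 23 genes to 13 with RLE scaling, 151 with DESeq2 and 2 with the replicate block. It gave 71 with the muscle score, and 5 to 26 when a library was left out. The injury count went from 3365 to 992 with the muscle score and to 1816 to 4058 when a library was left out. The P12 minus injury test went from 52 genes to 595 with DESeq2 and 31 with the replicate block. It gave 10 with the muscle score, 1 with the Y-linked sum, and 5 to 481 when a library was left out. The cause of these changes was not tested. Same-numbered P12 libraries did not deviate together (correlations of their deviations from the group means 0.0549, 0.00605 and 0.0538), so the numbers were not taken as pairs, and the P12 fit with the replicate block called 361 genes (221 higher, 140 lower). With 3 libraries per genotype, genes of a few counts per library, such as Gdnf and Olig1, are measured with little precision.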

Other observations

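Some genes outside the named lists, chosen after their values were seen, were also called in all 6 fits that left out a library. Serpina3n, a protease inhibitor of reactive glia, was at 6.39, 3.92 and 5.34 CPM in the +/+ libraries and 36.7, 43.7 and 25.1 CPM in the null libraries (2.76 ± 0.26, edgeR adjusted p = 0.000147). Gadd45a, a stress-response gene, was at 8.33, 10.6 and 9.24 CPM against 55.9, 37.0 and 45.9 CPM (2.31 ± 0.20, edgeR adjusted p = 7.38e-05). Gfra1, the GDNF receptor, rose by 0.93 ± 0.14 (edgeR adjusted p = 0.0049), while its ligand Gdnf was at most 5.60 CPM. Grn, the lysosomal protein progranulin, rose by 0.92 ± 0.13 (edgeR adjusted p = 0.00244) and Trf, the iron carrier transferrin, by 0.84 ± 0.15 (edgeR adjusted p = 0.011). Anxa1, annexin A1, went from 107, 142 and 160 CPM to 283, 318 and 408 CPM (1.31 ± 0.17, edgeR adjusted p = 0.00188), and the efferocytosis receptor Axl rose by 0.81 (edgeR adjusted p = 0.00841). Among lower genes, Chst2, a sulfotransferase, was at 318, 270 and 204 CPM against 100, 80.2 and 135 CPM (-1.32 ± 0.21, edgeR adjusted p = 0.00815), and Sema5a, an axon guidance protein, at 773, 672 and 703 CPM against 389, 298 and 464 CPM (-0.89 ± 0.15, edgeR adjusted p = 0.0102).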
